A study of Homo sapiens with 4 samples.

Results

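The β-catenin complex and the TCF/LEF factors are represented here by 10 genes. They encode β-catenin itself (CTNNB1), the scaffolds of its destruction complex (APC, AXIN1 and AXIN2), the kinases of that complex (GSK3A and GSK3B) and the DNA-binding partners of β-catenin (TCF7, TCF7L1, TCF7L2 and LEF1). The genes were taken as a fixed list that was chosen with earlier results of these data known. All 10 were found among the 60564 gene identifiers counted. RNA was measured by RNA-seq in Elf1 cells, a naïve human ESC line, with 2 libraries from each of 2 culture conditions. By the labels, the 2-D grown cells were adherent on Matrigel-coated plastic. By the study's methods, the line was maintained on mouse embryonic feeders before. The 3-D grown cells had been dissociated, encapsulated as single cells in a self-assembling PEG scaffold (PEG-8-SH with PEG-8-Acr) and kept there for 21 days. Cells of both conditions received the same ESC expansion medium, which according to the study's methods holds FGF2, LIF, an inhibitor of MEK and CHIR99021, an inhibitor of both GSK3 kinases. The GSK3 inhibitor was thus present in every library. The scaffold and the time without passage came together in the 3-D grown cells and cannot be told apart. The study's methods call the libraries of a condition independent biological replicates. With 2 of each, the p-values rest on the spread between these libraries, and the test also borrows from the spread over other genes.

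In the absence of a Wnt signal, APC and axin hold β-catenin next to GSK3, whose phosphorylation marks it for ubiquitination and breakdown. With a signal, or with GSK3 inhibited, β-catenin accumulates, enters the nucleus and binds TCF/LEF factors at their target genes. In pluripotent cells TCF7L1 acts mostly as a repressor that β-catenin relieves, while TCF7 and LEF1 act mostly as activators, and AXIN2, TCF7 and LEF1 are themselves Wnt target genes. Most control of this pathway acts on the β-catenin protein, which was not measured.

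The libraries held 33833778 and 30114220 counts in 2-D and 21154409 and 18276147 in 3-D grown cells, and the mitochondrial genes took 5.1% to 5.3% of them in 2-D and 8.33% to 8.5% in 3-D grown cells. The part of these differences in the results was not tested. All 9 human ESC markers of the list used here were detected in every library, POU5F1, NANOG and SOX2 among them. L1TD1 alone of these passed the test, with a log2 fold change of 0.21 toward 3-D grown cells, while LIN28A, the highest of them, had an adjusted p of 0.995 in edgeR. Genes were tested with the quasi-likelihood test of edgeR, and p-values were adjusted over all 22555 tested genes by Benjamini-Hochberg. A gene was called at an adjusted p below 0.05, as were 1782 genes, 1024 higher and 758 lower in 3-D grown cells. Scaling by library size alone, in place of TMM normalization, turned this split into 514 higher and 1879 lower and moved the median log2 fold change of all genes to −0.065.

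Of the 10 genes, TCF7L2, TCF7L1, GSK3A, APC and TCF7 rose in 3-D grown cells, and 0 fell at the same threshold. These 5 of 10 stand beside 4.54% of all tested genes that were called higher and 3.36% that were called lower. The 10 genes were chosen with earlier results of these data known, so these shares are a description and no test of the list. With library size alone, 3 rose (GSK3A, TCF7L1 and TCF7L2) and CTNNB1 fell. Among the 6895 genes whose mean level lay within the range of the 10 genes, from 24.8 to 573 normalized counts per 1e6 counts (CPM), 18.4% were called in either direction. Before adjustment, 9 of the 10 had a p below 0.05, as did 21.3% of all tested genes. The changes were small. The log2 fold change, 3-D relative to 2-D, ran from −0.11 to 0.26 with a median of 0.14, beside a median of −1e-04 over all tested genes. In 8 genes both 3-D libraries lay above both 2-D libraries, which was so in 25.4% of all tested genes, and in CTNNB1 both lay below, as in 25.1%, so that libraries of the conditions did not overlap in 9 of the 10 genes and in 50.5% of all. Fewer cells that express a gene and less of its RNA per cell cannot be told apart in such bulk samples.

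**Figure D1:**
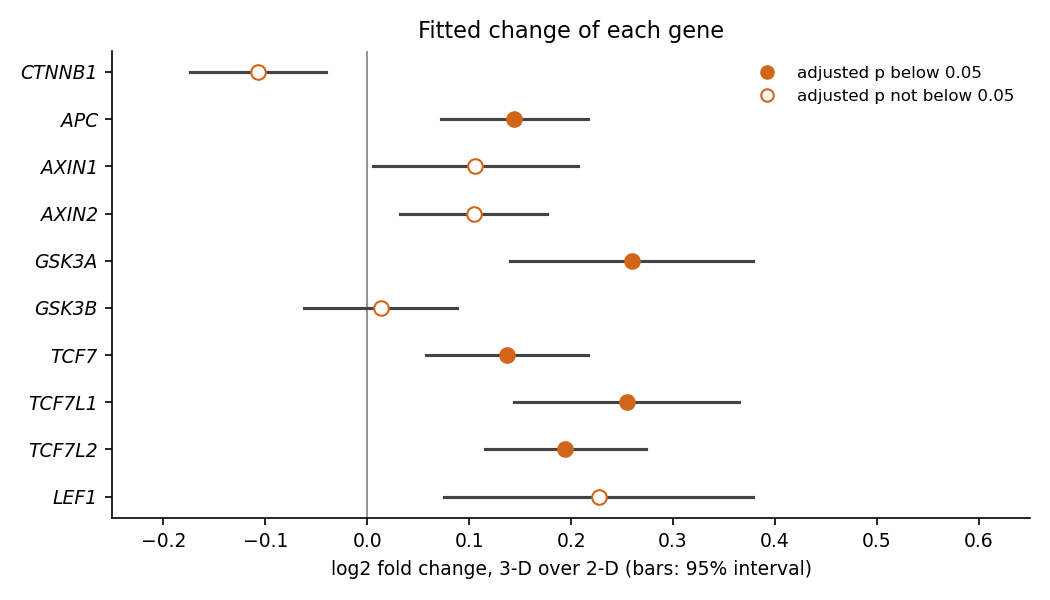
Log2 fold change, 3-D relative to 2-D (horizontal axis), for each of the 10 genes, with its 95% interval from edgeR's quasi-likelihood fit over 2 libraries per condition. Filled points mark the 5 genes with an adjusted p below 0.05, all to the right of 0, while CTNNB1 at −0.11 is the single point to the left.

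The stretches before the transcription starts of the genes called higher in 3-D grown cells are shown as a description. These genes were chosen by their calls, and the part of the sequences in their changes was not tested. Each line gives the 120 bases ahead of a start, read 5′ to 3′ on the gene's strand (plus for all shown), with each CG in capitals. They come from the RefSeq promoter table on GRCh38.p14. Stretches that touch an exon of GENCODE release 44 are not shown, which leaves out GSK3A, the first start of TCF7 and the third of TCF7L2.
APC, first start, chr5:112707378-112707497: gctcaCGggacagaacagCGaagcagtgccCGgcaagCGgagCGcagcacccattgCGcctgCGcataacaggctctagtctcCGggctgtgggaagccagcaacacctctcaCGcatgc
APC, second start, chr5:112737765-112737884: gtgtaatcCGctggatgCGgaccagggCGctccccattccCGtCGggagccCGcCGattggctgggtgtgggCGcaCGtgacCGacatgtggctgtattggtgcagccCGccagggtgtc
TCF7, second start, chr5:134123498-134123617: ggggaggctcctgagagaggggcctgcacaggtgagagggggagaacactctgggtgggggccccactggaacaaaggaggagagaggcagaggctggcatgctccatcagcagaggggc
TCF7L1, chr2:85133272-85133391: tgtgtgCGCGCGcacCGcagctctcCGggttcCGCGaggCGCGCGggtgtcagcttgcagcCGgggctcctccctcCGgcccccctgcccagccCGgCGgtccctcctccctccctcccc
TCF7L2, first start, chr10:112950127-112950246: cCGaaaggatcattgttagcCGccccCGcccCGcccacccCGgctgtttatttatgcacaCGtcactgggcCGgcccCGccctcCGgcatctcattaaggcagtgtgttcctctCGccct
TCF7L2, second start, chr10:113126513-113126632: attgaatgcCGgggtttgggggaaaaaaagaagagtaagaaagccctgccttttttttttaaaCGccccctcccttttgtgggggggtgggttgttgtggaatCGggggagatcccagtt
The stretch of TCF7L1 holds 14 CG dinucleotides, those of APC 9 and 11, those of TCF7L2 10 and 3 and that of TCF7 0, so they lie on both sides of the median of 6 over all promoters of the table. Core letters of the TCF/LEF motif were then looked for in the whole window of 300 bases around each start. Only the forms CTTTGAT and CTTTGAA, on either strand, were looked for. Another form, CTTTGTT, was not, and its reverse complement, aacaaag, stands in the TCF7 stretch above. Of the 10 genes, 9 matched the table, with 13 starts, and 0 of these windows held the letters in the forms looked for. AXIN2 was the gene absent from the table, so its promoter was not searched. The letters were present in 6.86% of all 35116 windows, so 0 among 13 does not set these genes apart. Sites outside the windows and other forms of the core were not looked for. Among the Wnt target genes listed further on, 4 of 16 windows held them.

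Levels of different genes were compared per kilobase of exons (RPKM, from the normalized CPM). CTNNB1 stood far above the other genes, with 50.8 and 50.2 RPKM in 2-D and 46.2 and 47.6 RPKM in 3-D grown cells. AXIN2 came next with 17.9 to 19.8 RPKM over the 4 libraries, then TCF7L2 with 9.95 to 11.6 and TCF7L1 with 9.33 to 11.5, whose ranges overlap. GSK3A, TCF7, AXIN1, GSK3B and APC lay close together between 6.14 and 7.97 RPKM, and each overlapped its neighbour in this order. LEF1 was lowest, from 4.1 to 5.06 RPKM, and did not overlap APC. The counts behind these levels ran from 475 for LEF1 in 3-D replicate 2 to 20590 for CTNNB1 in 2-D replicate 1, so LEF1 has the largest counting error.

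**Figure D2:**
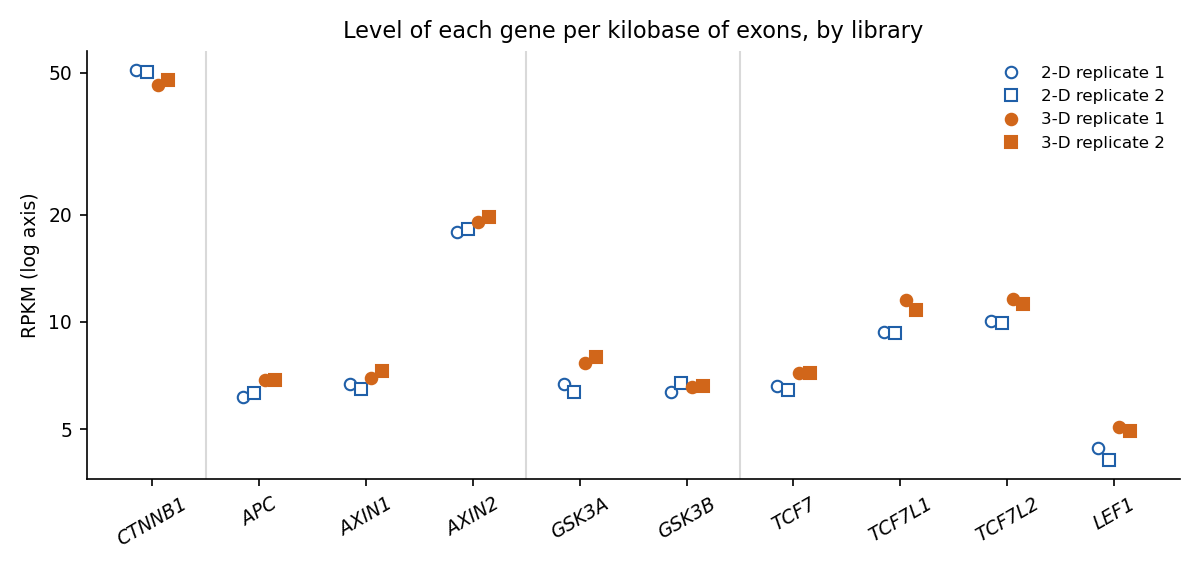
Level of each gene in each of the 4 libraries, in RPKM on a log axis, with open symbols for 2-D and filled symbols for 3-D grown cells. Vertical lines part β-catenin, the scaffolds, the GSK3 kinases and the TCF/LEF factors, and CTNNB1 lies highest and LEF1 lowest in every library.

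CTNNB1 (ENSG00000168036), on chromosome 3 from 41194741 to 41260096 of hg38, encodes β-catenin, which serves both in the Wnt pathway and at cadherin junctions. Its normalized CPM were 598 and 590.5 in 2-D and 543 and 559.9 in 3-D grown cells. The 3-D libraries were both below the 2-D libraries, and the gap exceeded the spread between replicates. The log2 fold change was −0.11 (SE 0.031, 95% interval −0.17 to −0.04), and its edgeR adjusted p of 0.0519 missed the threshold by little. It was below 0.05 in 9 of 12 alternative analyses, for example 0.0432 with DESeq2 and 0.0045 with library size alone, where the log2 fold change was −0.17. It was 0.0516 with the size factors of DESeq2 in edgeR, and with 2-D replicate 1 or 2 left out it was 0.353 or 0.242.

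Among the scaffolds, APC (ENSG00000134982), on chromosome 5 from 112707518 to 112846239, is the tumor suppressor that binds β-catenin within the destruction complex. It had 83.6 and 85.8 normalized CPM in 2-D and 93.4 and 93.9 in 3-D grown cells. The groups did not overlap, and the gap exceeded the spread between replicates. APC rose by 0.14 on the log2 scale (SE 0.033, edgeR adjusted p = 0.0192). With DESeq2, the adjusted p was 0.153, and without 2-D replicate 1 or 2 it was 0.251 or 0.0989.

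AXIN1, on chromosome 16 from 287440 to 352723, is the scaffold present in most cells. Its normalized CPM were 50.6 and 49.0 in 2-D and 52.4 and 54.8 in 3-D grown cells. AXIN2, on chromosome 17 from 65528563 to 65561648, is the inducible scaffold and a widely used reporter of Wnt signaling, and it had 93.1 and 94.8 in 2-D and 99.3 and 103 in 3-D grown cells. In both genes the 3-D libraries lay above the 2-D libraries, with log2 fold changes of 0.11 for AXIN1 and 0.10 for AXIN2. Neither passed the test (edgeR adjusted p = 0.208 and 0.0797). The 95% intervals, not adjusted over genes, were 0.0054 to 0.21 for AXIN1 and 0.03 to 0.18 for AXIN2. With library size alone the log2 fold change was 0.04 for each. Offsets for length and GC content gave 0.032 for AXIN1 and 0.074 for AXIN2. With DESeq2 the adjusted p was 0.513 and 0.353. With libraries left out in turn, the log2 fold change of AXIN2 ran from 0.08 to 0.13, the latter without 3-D replicate 1.

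The GSK3 kinases differed from each other. GSK3A lies on chromosome 19 from 42226225 to 42242625, and its normalized CPM were 38.7 and 36.7 in 2-D and 44.2 and 46.1 in 3-D grown cells. It rose by 0.26 on the log2 scale, the largest change among the 10 genes (SE 0.055, edgeR adjusted p = 0.0121). Without 2-D replicate 2 this was 0.22 with an adjusted p of 0.115. GSK3B, on chromosome 3 from 119821321 to 120094994, had 113 and 120.4 in 2-D and 117 and 118 in 3-D grown cells. Its 3-D libraries fell between the 2-D libraries, and its log2 fold change was 0.013 (SE 0.035, 95% interval −0.06 to 0.09, adjusted p = 0.88), with the sign turned to −0.05 by library size alone and to −0.03 without 2-D replicate 1.

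All TCF/LEF factors were higher in 3-D grown cells under every scaling and with every library left out, and 3 of the 4 passed the test. TCF7L1 lies on chromosome 2 from 85133392 to 85310387, and its normalized CPM were 41.6 and 41.3 in 2-D and 50.9 and 48.0 in 3-D grown cells. The 2-D libraries were nearly equal and the 3-D libraries both clearly higher. TCF7L1 rose by 0.25 on the log2 scale (SE 0.051, edgeR adjusted p = 0.00879), and it alone of the 10 genes was called with each library left out. Offsets for length and GC content of genes raised its adjusted p to 0.0528.

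TCF7L2, on chromosome 10 from 112950247 to 113167678, encodes TCF4, which can activate or repress depending on isoform and partners. It had 67.7 and 67.0 normalized CPM in 2-D and 78.2 and 75.8 in 3-D grown cells. TCF7L2 rose by 0.19 (SE 0.036, edgeR adjusted p = 0.00584), the smallest p of the 10 genes. The call was lost with DESeq2 (adjusted p = 0.051) and without 2-D replicate 2 (adjusted p = 0.071). Gene counts do not separate its isoforms, nor those of TCF7 and LEF1 that lack the β-catenin-binding end.

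TCF7, on chromosome 5 from 134114681 to 134151865, encodes TCF1. Its normalized CPM were 66.8 and 65.1 in 2-D and 72.4 and 72.7 in 3-D grown cells. The groups were apart by more than the spread between replicates, and TCF7 rose by 0.14 (SE 0.037, edgeR adjusted p = 0.0384). This call was the least stable of the 5. Its adjusted p was 0.248 with DESeq2, 0.265 with library size alone and 0.243 under offsets for length and GC content, where the change was 0.076. Leaving out a 2-D library gave 0.159 for replicate 1 and 0.389 for replicate 2, and leaving out a 3-D library gave 0.055 for replicate 1 and 0.0657 for replicate 2.

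LEF1 lies on chromosome 4 from 108047545 to 108168956, and its normalized CPM were 23.8 and 22.0 in 2-D and 27.1 and 26.5 in 3-D grown cells. The libraries did not overlap between conditions, but LEF1 has the fewest counts of the 10 genes and the widest interval. Its log2 fold change of 0.23 (SE 0.07, 95% interval 0.07 to 0.38) had an edgeR adjusted p of 0.0702. With DESeq2 the adjusted p was 0.224, with library size alone 0.179 and under offsets for length and GC content 0.101. It fell below 0.05 with the replicate block (0.0493) and with no low-count filter (0.048). With libraries left out in turn, the log2 fold change ran from 0.17 to 0.29.

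**Figure D3:**
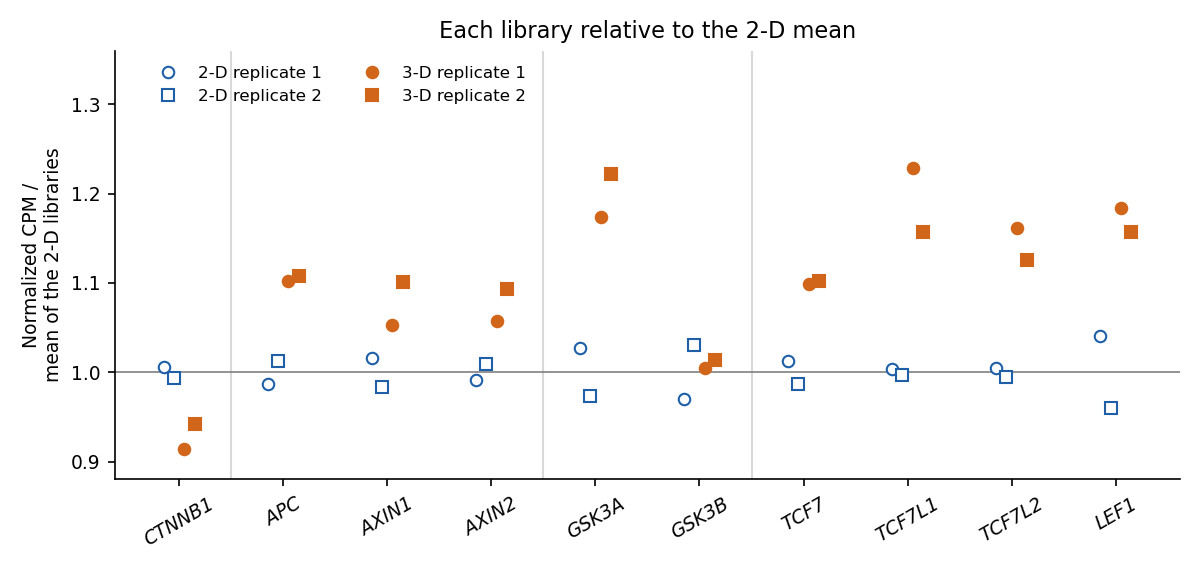
Normalized CPM of each gene in each library divided by the mean of the 2-D libraries, with open symbols for 2-D and filled symbols for 3-D grown cells. The filled symbols lie above the open ones in 8 genes, below them in CTNNB1 and between them in GSK3B.

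Several of these genes share exon bases with a neighbour, and the counting settings for strand and for reads with several matches are not given in the sources used here. TCF7 shares 210 exon bases with SKP1 on the opposite strand, whose counts of 5963, 5491, 3783 and 3357 exceed those of TCF7. SKP1, a subunit of the ubiquitin ligase that receives phosphorylated β-catenin, changed by 0.08 on the log2 scale without passing the test (SE 0.031, edgeR adjusted p = 0.149). LEF1 shares 279 bases with LEF1-AS1, which had 121 and 125 counts in 2-D and 89 in each 3-D library, or a log2 fold change of 0.29 at these depths (edgeR adjusted p = 0.304). TCF7L2 shares 300 bases with ENSG00000233547 on the opposite strand, with 289, 250, 170 and 170 counts and a log2 fold change of 0.10 (adjusted p = 0.672). GSK3A shares 197 bases with ZNF526, with a log2 fold change of −0.013 (adjusted p = 0.952). The part of these overlaps in the changes was not tested. AXIN2 and GSK3A also share sequence with a readthrough gene, ENSG00000266076 and ENSG00000268643, which held at most 3 counts in any library.

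A ratio between a pair of genes within a library does not depend on how libraries are scaled to each other. The level of APC per kilobase was 0.121 and 0.125 of that of CTNNB1 in 2-D and 0.148 and 0.145 in 3-D grown cells. The ratio of AXIN1 to CTNNB1 was 0.132 and 0.129 in 2-D and 0.150 and 0.153 in 3-D, and that of AXIN2 to CTNNB1 was 0.352 and 0.363 in 2-D and 0.413 and 0.415 in 3-D grown cells. All scaffolds were thus more abundant per β-catenin transcript in both 3-D libraries, by 0.25, 0.21 and 0.21 on the log2 scale. These ratios share CTNNB1, whose own log2 fold change of −0.11 enters each of them, so they are not independent results. AXIN1 and AXIN2 themselves were not called (edgeR adjusted p = 0.208 and 0.0797). The SD of these log2 ratios within a condition was 0.0038 to 0.0389.

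Per kilobase of all annotated exons (17871 bases for GSK3B and 5782 for GSK3A), the ratio of GSK3B to GSK3A was 0.947 and 1.06 in 2-D grown cells. In 3-D grown cells it was 0.859 and 0.831, a log2 difference of −0.25. Before scaling by length, GSK3B had more counts than GSK3A in every library, so the near parity depends on the length used. The ratio of AXIN2 to AXIN1 overlapped between the conditions, with 2.67 and 2.81 in 2-D and 2.75 and 2.72 in 3-D grown cells. Of the 8 ratios computed, 6 did not overlap between conditions. Ratios that share CTNNB1 or TCF7L1 are not independent. Single genes did not overlap in 50.5% of all tested genes, and no such share was computed for ratios of other genes. Each of the 6 ratios had an exact two-sided permutation p of 0.333 (Benjamini-Hochberg adjusted, 0.444). This is the smallest p that 2 against 2 libraries allow, so the design cannot reach 0.05 by this test.

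**Figure D4:**
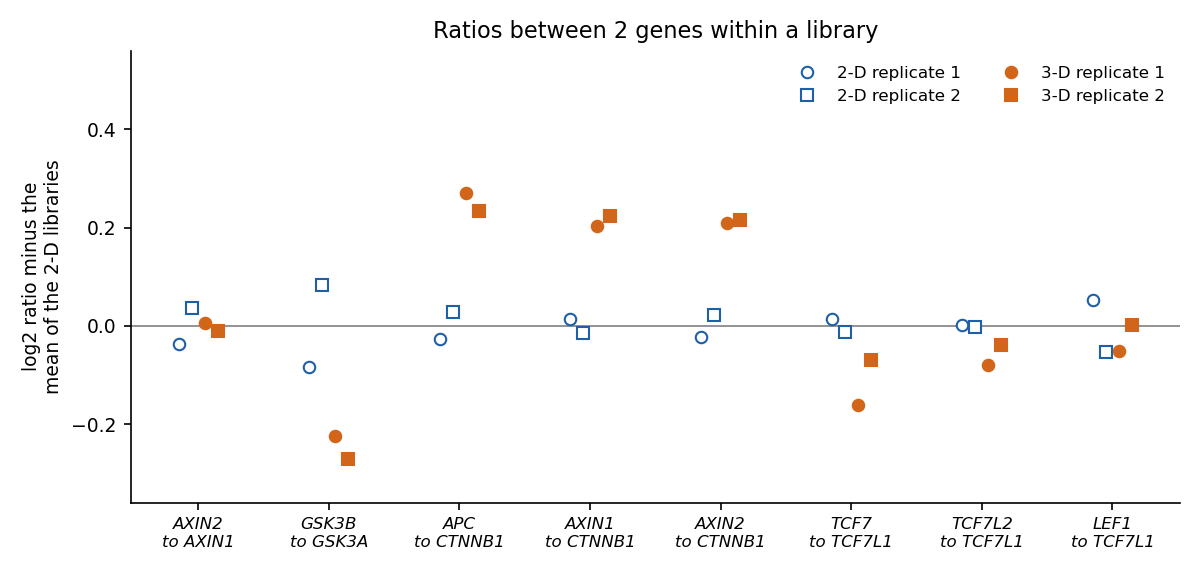
Log2 ratio between a pair of genes within each library, from counts per kilobase, minus the mean of the 2-D libraries for that ratio. Open symbols are 2-D and filled symbols 3-D libraries, and the 3-D libraries lie about 0.2 above for the scaffolds over CTNNB1 and below for GSK3B over GSK3A.

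The TCF/LEF factors summed to 30.5 and 29.8 RPKM in 2-D and 35.3 and 34.2 RPKM in 3-D grown cells. The make-up of the family moved little. TCF7L1 held 30.8% and 31.3% of the sum in 2-D and 32.5% and 31.6% in 3-D grown cells, and TCF7 held 21.7% and 21.6% against 20.3% and 21.0%. TCF7L2 stayed between 32.9% and 33.4% in the 4 libraries and LEF1 between 13.7% and 14.6%. Markers of fibroblasts also moved between the conditions. Of 9 on the list 7 were tested and 4 rose (COL1A1, COL3A1, THY1 and POSTN), beside 4.54% of all tested genes called higher. The list had a summed level of 56.9 to 57.7 RPKM in 2-D and 59.9 to 65.8 RPKM in 3-D grown cells. The highest of the list, COL1A2, was at 300.7 to 325 normalized CPM and did not pass (log2 fold change −0.037, edgeR adjusted p = 0.649), nor did PDGFRA and PDGFRB. DCN and LUM were too low to be tested, with 2 to 6 and 3 to 17 counts in a library. Their part in the changes of the TCF/LEF factors was not tested.

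Other genes of the destruction machinery, among them genes that act against it, had calls in both directions. Of 22 genes tested, 4 fell (PPP2CB, PPP2R1A, TNKS2 and the E3 ligase subunit GID8), 1 rose (USP7) and 17 did not pass, with a median log2 fold change of −0.06. Over all tested genes, 3.36% were called lower and 4.54% higher, and 18.4% were called in either direction at the levels of the 10 genes. PPP2CB, a catalytic subunit of the phosphatase PP2A that can remove the marks set by GSK3, had 94.7 and 98.2 normalized CPM in 2-D and 84.6 and 78.7 in 3-D grown cells, a fall by 0.24 (SE 0.04, edgeR adjusted p = 0.00294). The PP2A scaffold PPP2R1A fell by 0.15 and TNKS2, a tankyrase that marks axin for breakdown, fell by 0.12 (adjusted p = 0.0177 and 0.0343). USP7, a deubiquitinase, rose by 0.12 (adjusted p = 0.0315). With library size alone, 0 rose and 7 fell. Leaving out 2-D replicate 1 left 1 call and leaving out 2-D replicate 2 left 2, and 8 were called when 3-D replicate 1 was left out.

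Of the nuclear cofactors of β-catenin and the TCF/LEF factors, 10 of 27 tested genes rose in 3-D grown cells, 0 fell and 17 did not pass, with a median of 0.09, beside 4.54% of all tested genes called higher and 18.4% called in either direction at the levels of the 10 genes. CREBBP, the acetyltransferase CBP that β-catenin recruits, had 189 and 181 normalized CPM in 2-D and 227 in each 3-D library, a rise by 0.29 (SE 0.032, edgeR adjusted p = 1.71e-04). The remodeler subunits RUVBL1 and SMARCA4 rose by 0.21 and 0.22, and BCL9, which links β-catenin to PYGO proteins, rose by 0.18 (adjusted p = 7.79e-04, 0.00101 and 0.0044). The elongation factor subunit PAF1 rose by 0.27 (adjusted p = 0.00755). TLE3, a corepressor that binds TCF/LEF factors in place of β-catenin, rose as well, from 132 and 135 to 155 and 153 normalized CPM (log2 fold change 0.21, adjusted p = 0.00115). Coactivators and a corepressor thus both stood among the genes that rose. Without 2-D replicate 2, 5 were called, and with library size alone 6 rose and 2 fell.

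At the junctions, where β-catenin binds the tails of cadherins, CDH1, CDH2 and CDH3 rose among 9 tested genes and 0 fell, with a median of 0.11, beside the same 4.54% and 18.4%. CDH3, P-cadherin, had 132 and 135 normalized CPM in 2-D and 147 and 155 in 3-D grown cells (log2 fold change 0.18, standard error 0.033, edgeR adjusted p = 0.00575). CDH1, E-cadherin, rose by 0.11 and CDH2, N-cadherin, by 0.12 (adjusted p = 0.0471 and 0.034). The α- and δ-catenin genes CTNNA1 and CTNND1 had log2 fold changes of 0.02 and 0.03 (adjusted p = 0.838 and 0.698). Other catenin genes of the list did not pass either, but were less flat. JUP had a log2 fold change of 0.14 (SE 0.042, edgeR adjusted p = 0.0631), with both 3-D libraries above both 2-D libraries. CTNND2 and CTNNA3, with 40 to 62 and 28 to 75 counts in a library, had 0.40 and −0.24 (adjusted p = 0.3 and 0.654). The number of calls depended on the analysis, with 0 by library size alone, 1 by DESeq2, 1 with either 2-D library left out and 5 without 3-D replicate 1.

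Wnt target genes outside the 10 had calls in both directions. Of 24 tested, CD44 and FOSL1 rose, FZD7 fell and 21 did not pass, beside 7.9% of all tested genes called in either direction. FOSL1, a subunit of the AP-1 factor, had 13.7 and 15.0 normalized CPM in 2-D and 20.8 and 19.8 in 3-D grown cells, a rise by 0.50 (SE 0.082, edgeR adjusted p = 0.0025). CD44, an adhesion receptor, rose by 0.19 and FZD7, a Wnt receptor, fell by 0.17 (adjusted p = 0.00181 and 0.0094). The feedback regulators SP5, RNF43 and ZNRF3, named after their values were seen, did not pass. SP5 had 64.5 in each 2-D library and 65.1 and 71.8 in 3-D, RNF43 had 11.8 and 12.2 against 13.8 and 12.2, and ZNRF3 34.3 and 36.6 against 34.6 and 34.9 normalized CPM. Their log2 fold changes were 0.08, 0.12 and −0.03 (adjusted p = 0.321, 0.516 and 0.843). Without 3-D replicate 1, 5 of the target genes were called.

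**Figure D5:**
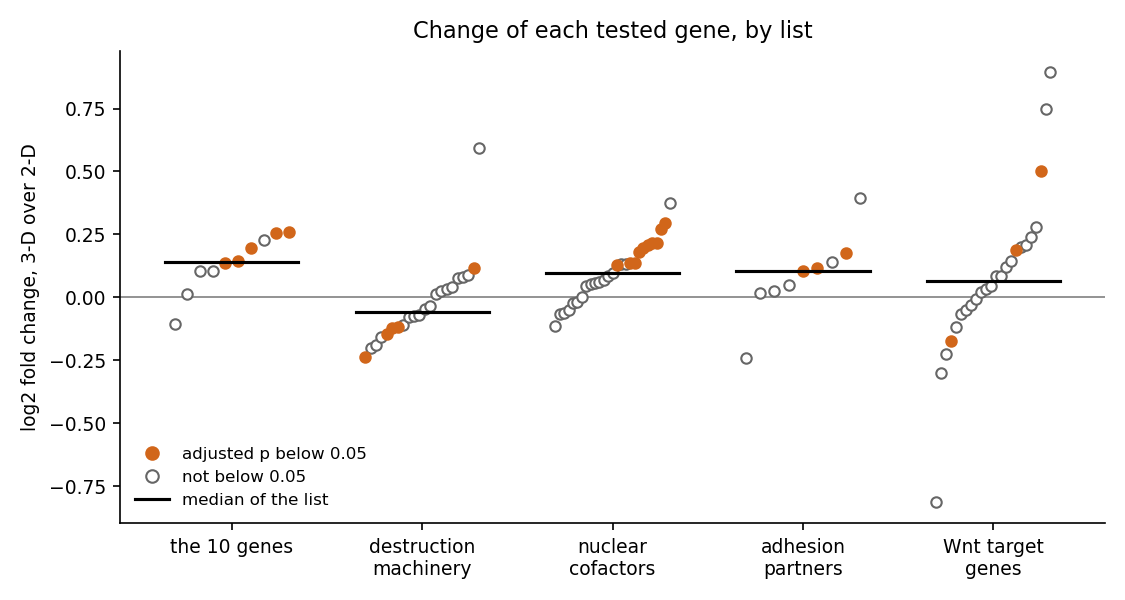
Log2 fold change, 3-D relative to 2-D (vertical axis), of every tested gene, sorted within each list, with filled points for an adjusted p below 0.05 and a bar at the median. The medians are 0.14 for the 10 genes, −0.06 for the destruction machinery, 0.09 for the nuclear cofactors, 0.11 for the adhesion partners and 0.06 for the Wnt target genes.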

How the data were processed

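RNA-seq was performed on 2 libraries each of 2-D and 3-D grown Elf1 cells. The authors depleted ribosomal RNA, trimmed the paired reads with Trim Galore 0.6.3, mapped them to hg38 with HISAT2 2.1.0 and assigned them to GENCODE release 30 with featureCounts 1.6.4, and the deposited values are raw counts per gene. A deposited table with normalized values and the authors' own fold changes and p-values was not used. Symbols, positions and exon lengths are from GENCODE release 44, and 60295 of 60564 identifiers matched (0.122% of counts did not).

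Counts were tested with edgeR 4.0.16 (R 4.3.3) using TMM, filterByExpr, the quasi-likelihood test with condition alone and Benjamini-Hochberg adjustment. The standard error is the log2 fold change over the square root of F. The procedure was tested on simulated data. The label of independent biological replicates is from the study's methods. Replicates differed by more than counting error (chi-square over its degrees of freedom 2.27 in 2-D and 3.92 in 3-D). Copies were searched with minimap2 2.31-r1302.

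The genes and lists were chosen with earlier results of these data known. Named are the 10 genes, genes that overlap them, and up to 6 called genes per list, smallest p first (the 2 highest in level where fewer than 2 were called). CTNNA1, CTNND1, SP5, RNF43, ZNRF3, GATA6, EOMES, HAND1, COL1A2, PDGFRA, PDGFRB, DCN and LUM were named outside this rule after their values were seen. So were JUP, CTNND2, CTNNA3, NKD1 and NOTUM. Alternatives were DESeq2 1.42.0, its size factors in edgeR, library size alone, 2 other low-count filters, a replicate block, offsets from splines (5 degrees of freedom) of gene length and of GC content, that block with these offsets, and each library left out. A left-out fit assumes that the lone library varies like the other condition.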

Additional observations from a re-analysis of the deposited data

How the results depend on the processing

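Of the 10 genes, 9 kept their direction in all 12 alternatives. GSK3B, which was not called, turned to −0.051 with library size alone and ran from −0.031 to 0.057 with libraries left out, the former without 2-D replicate 1. DESeq2 called 834 genes in all, 3 of the 10 genes (CTNNB1 lower, GSK3A and TCF7L1 higher), 3 of the destruction machinery and 1 adhesion partner. Library size alone called 0 adhesion partners, and offsets for length and GC content called 3 of the destruction machinery. The cause was not tested. With libraries left out in turn, calls ran from 974 to 2643 over all genes, from 1 to 6 of the 10 genes, from 1 to 8 of the destruction machinery, from 5 to 13 nuclear cofactors, from 1 to 5 adhesion partners and from 3 to 5 Wnt target genes. The single gene of the 10 called without 2-D replicate 2 was TCF7L1. The log2 difference of AXIN2 to AXIN1 ran from −0.038 to 0.034 and that of LEF1 to TCF7L1 from −0.078 to 0.029. The other 6 ratios kept their sign.

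The replicate numbers were not shown to pair the libraries, since deviations of same-numbered libraries had a correlation of −0.0079 over genes. With the replicate block, 2167 genes and 7 of the 10 genes were called, CTNNB1 (lower) and LEF1 added. With the block and the offsets together, 2184 and 5 were called. Depth limits LEF1 most. Comparison of protein sequences was not run.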

Other observations

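Primitive streak and mesendoderm genes, many of which β-catenin with TCF/LEF factors can switch on during differentiation, were at low to moderate levels in both conditions. Of 12 listed, 7 passed the filter on low counts and 0 were called by edgeR or by DESeq2, with 2 at an edgeR p below 0.05 before adjustment. TBXT, brachyury, had 725 and 691 counts in 2-D and 495 and 455 in 3-D grown cells, a log2 fold change of 0.19 (standard error 0.071, adjusted p = 0.147). MIXL1 had a log2 fold change of 0.06 and EOMES of −0.04 (adjusted p = 0.63 and 0.851). GATA6, an endoderm factor, was at 29 and 34 counts in 2-D and 48 and 27 in 3-D grown cells, or 0.842 and 1.10 against 2.34 and 1.51 normalized CPM, with an edgeR adjusted p of 0.0516. Of the neural markers 4 of 8 were tested and of the trophoblast markers 3 of 8, with 0 called in each list by edgeR or DESeq2 and with 0 and 1 at an edgeR p below 0.05 before adjustment. The latter was HAND1, with 21 counts in each 2-D library and 26 and 23 in 3-D grown cells. Its log2 fold change was 0.98 (edgeR adjusted p = 0.0695). The highest of each list, NES and TFAP2C, had log2 fold changes of 0.05 and 0.04 (edgeR adjusted p = 0.347 and 0.525).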
